A study of Homo sapiens with 2 samples.

Results

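The ABC transporters are a family of membrane proteins that move substrates across membranes with energy from ATP. The genes described here are those whose symbol in the deposited table is ABC, a subfamily letter from A to G and a number. This choice gave 8 of the 2046 genes of the table, of which 7 are described: ABCG2, ABCC2, ABCC3, ABCG1, ABCA12, ABCB4 and ABCB6. The data are messenger RNA of MDA-MB-231, a human triple-negative breast cancer cell line, in cells with TMEM25 knocked out (genotype TAMER-/-) and in wild-type cells (TAMER+/+). TMEM25 is a transmembrane protein, and the study's title concerns EGFR acting as a monomer and the transcription factor STAT3. Both cultures were kept in DMEM with serum, no drug or other treatment is named in the labels, and whether the knockout cells are a clone or a pool is not given there. Each genotype had 1 library, which leaves every difference below without replicates and untested.

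The table sets the direction of every comparison. In each of the 2046 genes the knockout value is 2 times the wild-type one or more, and never under 1. That an ABC gene of the table is higher in knockout cells is therefore not a result about ABC genes, and ABC genes outside the table were not analysed here. The table has no row for TMEM25, EGFR or STAT3, which were not analysed here, and TMEM25 loss was not checked. The headers of the value, count and ratio columns name the knockout library, and the log2 headers name the libraries the other way round. Which headers are right was not checked, so every direction given here rests on those of the value, count and ratio columns. These genes took 4138956 reads in knockout cells and 1046999 in wild-type cells, a part of each library that does not give its depth. Of the markers fixed for mesenchymal breast cancer lines, 0 of 9 were in the table, so the identity of the line was not checked by them. Luminal breast markers gave 2 of 12, TFF1 and TFF3, with values that summed to 6048 in knockout cells and 4.62 in wild-type cells. TFF1 alone was at 5920 in knockout cells and 0.94 in wild-type cells. Basal or squamous markers gave 1 of 7, SFN at 159.6 in knockout cells and 69.09 in wild-type cells, and endothelial markers 1 of 5, EMCN at 4.73 in knockout cells and 0.33 in wild-type cells. Leukocyte, fibroblast and hepatocyte markers gave 0 of 5 each. The table held 10.0% of all protein-coding genes, and marker lists this small do not tell their counts from that share. The part of these markers' cell identities in the ABC values was not tested. In bulk RNA, fewer cells of a type and less RNA per cell cannot be told apart.

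As background, an ABC transporter needs a pair of ATP-binding domains and a pair of membrane-spanning domains, held either in a single chain or in separate chains that join. Subfamilies B, C and G hold the efflux pumps that lower the drug content of tumor cells, above all ABCB1, members of subfamily C and ABCG2. ABCB1 was not analysed here. Subfamilies A and G move mainly lipids and sterols, and the E and F proteins lack membrane domains and act on ribosomes and translation.

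By RefSeq gene symbols, the table held 8 of 45 protein-coding ABC genes, or 17.8%, beside 2012 of 20056 protein-coding genes, or 10.0%. Subfamilies E and F gave 0 of 1 and 0 of 3. Whether ABC genes outside the table are expressed in these cells is not known, and no enrichment was tested. ABC-fold genes with other names, CFTR, TAP1 and TAP2, gave 0 of 3.

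Among the drug efflux transporters, ABCG2 had the widest difference of the 7 genes. ABCG2, also called breast cancer resistance protein, exports many anticancer drugs, urate and porphyrins across the cell surface. Expression values are taken here as scaled for gene length and library depth. That of ABCG2 was 35.57 in knockout cells (2106 reads) and 0.15 in wild-type cells (10.5 reads). Knockout cells thus held ABCG2 at the level of the most expressed ABC genes of the table, while wild-type cells held it at the lower end. By the authors' deposited table its ratio was 237. The fold from read counts, corrected for the difference in reads per unit of value between the libraries, was 174 (95% counting limits 98.9 and 381). The interval rests on the small wild-type count, and its lower limit is above the upper limits of the other 6 genes. By the authors' deposited table ABCG2 had the 34th highest ratio of the 2046 genes. It was 550th by value in knockout cells and 1801st in wild-type cells. The enzymes GSTT1 and UGT1A6 had 0 wild-type reads but a deposited wild-type value of 0.1, with ratios of 226 and 103.5. Ranks and shares by deposited ratio depend on that value for such genes. ABCG2 (Entrez 9429) is a minus-strand gene of chromosome 4, from 88090264 to 88231322 in GRCh38.

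RefSeq promoter windows were found for 4 of the 7 genes: ABCG2, ABCB6, ABCA12 and ABCC2. Each window reached from 250 bases before an annotated start of the gene to 50 bases after it in GRCh38.p14. Some genes had several such starts. Of the 5 ABCG2 windows, 2 that do not overlap and hold matches to the motifs are shown, and the ABCB6 window and 1 of the 2 ABCA12 windows because they share a stretch with ABCG2. These were picked after the matches were seen. The ABCG2 and ABCA12 windows shown lie inside the spans of those genes, not at their upstream ends. Letters run 5′ to 3′ on the gene's strand, which is the minus strand for each, and capitals mark matches on either strand to the motifs named after them.
ABCG2, chr4:88158810-88159109: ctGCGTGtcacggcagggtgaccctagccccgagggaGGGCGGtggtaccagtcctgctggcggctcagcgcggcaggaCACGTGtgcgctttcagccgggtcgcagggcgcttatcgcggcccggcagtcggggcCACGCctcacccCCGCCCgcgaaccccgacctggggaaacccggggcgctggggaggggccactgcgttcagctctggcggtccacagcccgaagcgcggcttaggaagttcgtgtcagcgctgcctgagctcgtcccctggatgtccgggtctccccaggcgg
ABCG2, chr4:88159241-88159540: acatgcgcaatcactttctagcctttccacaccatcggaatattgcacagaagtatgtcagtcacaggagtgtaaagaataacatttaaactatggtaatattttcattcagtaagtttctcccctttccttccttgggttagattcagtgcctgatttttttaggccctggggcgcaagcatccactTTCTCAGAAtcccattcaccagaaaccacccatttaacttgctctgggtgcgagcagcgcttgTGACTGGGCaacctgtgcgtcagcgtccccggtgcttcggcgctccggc
ABCB6, chr2:219218909-219219208: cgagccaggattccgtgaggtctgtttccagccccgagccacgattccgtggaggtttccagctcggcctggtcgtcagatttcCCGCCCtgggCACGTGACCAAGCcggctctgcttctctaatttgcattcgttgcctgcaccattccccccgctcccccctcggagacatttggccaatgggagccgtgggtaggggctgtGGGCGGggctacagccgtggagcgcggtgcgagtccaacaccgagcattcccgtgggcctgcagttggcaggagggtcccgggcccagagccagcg
ABCA12, chr2:215032037-215032336: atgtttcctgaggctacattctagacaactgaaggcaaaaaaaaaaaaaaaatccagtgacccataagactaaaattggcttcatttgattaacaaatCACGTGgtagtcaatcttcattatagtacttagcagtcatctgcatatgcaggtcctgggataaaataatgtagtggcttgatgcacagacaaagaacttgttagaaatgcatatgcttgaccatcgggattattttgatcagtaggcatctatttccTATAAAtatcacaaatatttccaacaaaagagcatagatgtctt

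The motifs searched were TGACNNNGC (antioxidant response element core), the xenobiotic response element core GCGTG and the hypoxia response element core ACGTG. The site type of STAT factors was searched as TTCNNNGAA, the GC box as GGGCGG and the TATA box as TATAAA. The estrogen response element was searched as GGTCA and, after 3 bases, its reverse complement. The LXR site was searched as AGGTCA repeated in the same direction after 4 bases. CACGTG, an E-box, was added after the matches were seen. It overlaps ACGTG (21.4% of all windows) on both strands. CACGTG lay in the first ABCG2 window, the ABCB6 window and the ABCA12 window, and in 7.26% of all 35116 promoter windows. The first ABCG2 window also held GCGTG at 2 places (36.5% of all windows) and GGGCGG at 2 places (45% of all windows), had 33 CpG dinucleotides and was 72.3% G and C, against medians of 14 and 58.7% over all windows. The second ABCG2 window held TTCNNNGAA once (7.66% of all windows) and TGACNNNGC once (13.3%). The ABCB6 window held TGACNNNGC once, overlapping its CACGTG, and GGGCGG at 2 places. The ABCA12 window held TATAAA once (11.5% of all windows). The estrogen and LXR sequences, present in 0.057% and 0.0199% of all windows, were in none of the 9 windows of these genes. Of the ABCG2 windows not shown, 1 overlaps most of the first and held the same matches. Another overlaps the end of the first and held GCGTG only, at 2 places. The last (chr4:88231577-88231876), nearest the upstream end of the ABCG2 span, held no match. The other ABCA12 window, nearest the upstream end of that gene's span, held none. The ABCC2 window held TATAAA only. A match is a stretch of letters and was not tested for binding.

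The other drug efflux genes belong to subfamily C and were expressed at lower values in knockout cells. ABCC3 (Entrez 8714) is on chromosome 17 from 50634777 to 50692252, and ABCC2 (Entrez 1244) on chromosome 10 from 99782640 to 99852594, both on the plus strand in GRCh38. ABCC3 (MRP3), which exports glucuronides and bile salts from the basolateral side of epithelial cells, had a value of 8.80 in knockout cells (786 reads) and 1.35 in wild-type cells (105 reads). Its read-count fold was 6.46 (counting limits 5.28 and 8.02), beside a ratio of 6.52 in the authors' deposited table. ABCC2 (MRP2), which exports glutathione and glucuronide conjugates from the apical side, had a value of 1.72 in knockout cells (171 reads) and 0.18 in wild-type cells (17 reads). Its read-count fold was 8.71 (counting limits 5.28 and 15.3), so ABCC2 and ABCC3 were not separated in fold by counting error. They were separated in level in knockout cells, where the 95% counting interval of the value was 1.47 to 2.0 for ABCC2 and 8.20 to 9.44 for ABCC3.

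**Figure D1:**
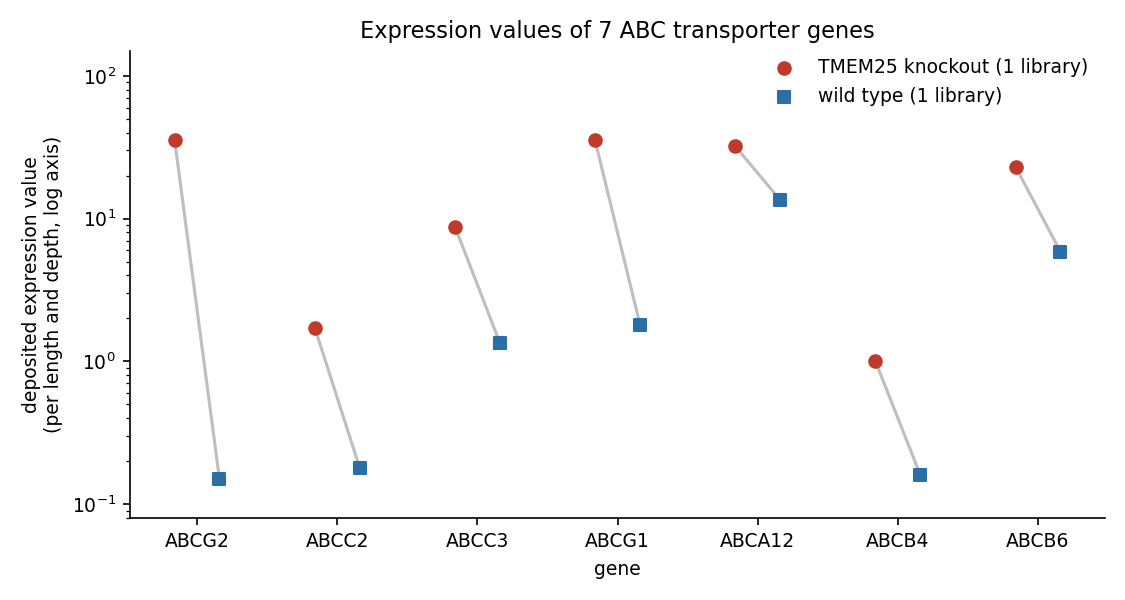
Deposited expression values (log axis) of the 7 ABC transporter genes in TMEM25 knockout cells (circles, left of each pair) and wild-type cells (squares), 1 library each. ABCG2 spans the widest gap, 35.57 in knockout cells against 0.15 in wild-type cells, while ABCA12, the most expressed in wild type, has the narrowest, 32.1 in knockout cells against 13.53 in wild-type cells.

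Among the lipid transporters, ABCG1 stood out. ABCG1 moves cholesterol toward high-density lipoprotein. It had a value of 35.27 in knockout cells (2301 reads) and 1.81 in wild-type cells (107 reads), and a read-count fold of 18.6 (counting limits 15.3 and 22.8). ABCA12, which loads glucosylceramides into the lamellar granules of keratinocytes, had a value of 32.1 in knockout cells and 13.53 in wild-type cells. It rested on 5334 reads in knockout cells and 1992 reads in wild-type cells, the most of the 7 genes, and its fold of 2.32 had the narrowest interval, 2.20 to 2.44. ABCB4 (MDR3), which moves phosphatidylcholine into bile in liver cells, was near the lower limit of the table at 1 in knockout cells and 0.16 in wild-type cells. It had 78.3 reads in knockout cells, 12.5 reads in wild-type cells and a fold of 5.44 (counting limits 3.05 and 11.4). ABCA12 (Entrez 26154) is on chromosome 2 from 214931542 to 215138428, and ABCB4 (Entrez 5244) on chromosome 7 from 87401697 to 87480435, both on the minus strand in GRCh38. The lipid transporters spanned both the low and the high end of the levels and of the folds.

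ABCB6 (Entrez 10058) is a minus-strand gene of chromosome 2, from 219209766 to 219219017 in GRCh38. ABCB6, a porphyrin transporter of mitochondria, endolysosomes and the cell surface, had a value of 23.0 in knockout cells (1285 reads) and 5.87 in wild-type cells (287 reads). Its read-count fold was 3.88 (counting limits 3.41 and 4.42), for a gene that shares most of its sequence with an overlapping locus. That fold lies between those of ABCA12 and ABCB4, with an upper limit below the fold of ABCB4 but above that gene's lower limit.

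**Figure D2:**
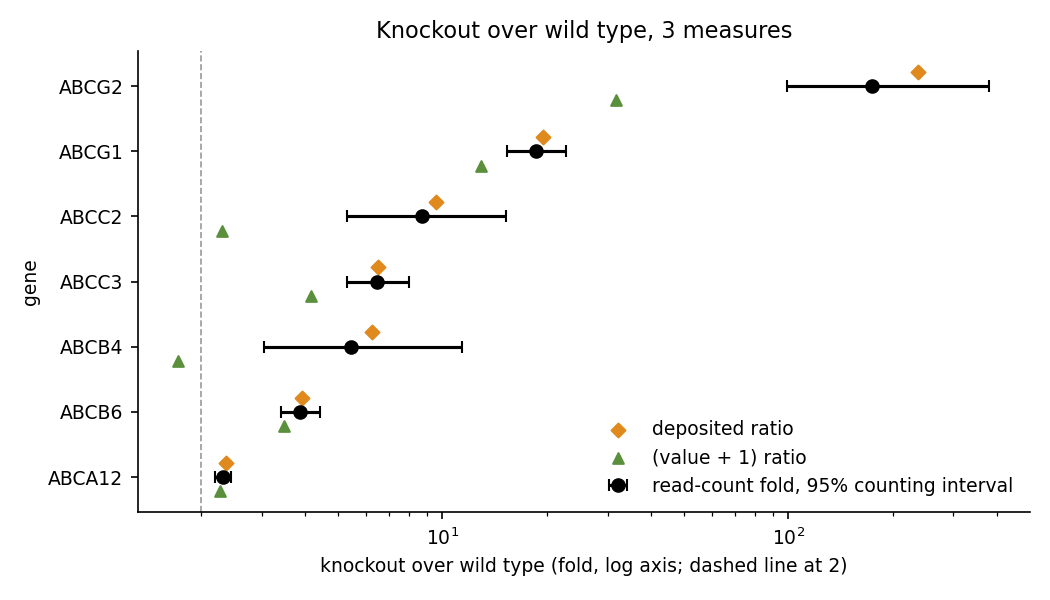
Knockout over wild type on a log axis for each ABC gene, as the read-count fold with its 95% counting interval (circles and bars), the authors' deposited table's own ratio (diamonds) and that after 1 is added to each value (triangles). ABCG2 (read-count fold 174) and ABCG1 (18.6) lie above the others, and the triangles fall farthest below the circles, on the log axis, for the 3 genes with the lowest wild-type values, most for ABCG2 and then for ABCC2 and ABCB4.

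The order of the levels differed between the libraries. In knockout cells the values ran from ABCG2 (35.57) through ABCG1 (35.27), ABCA12 (32.1), ABCB6 (23.0), ABCC3 (8.80) and ABCC2 (1.72) to ABCB4 (1). By counting error ABCG2 was not separated from ABCG1 there. In wild-type cells the values ran from ABCA12 (13.53) through ABCB6 (5.87), ABCG1 (1.81), ABCC3 (1.35), ABCC2 (0.18) and ABCB4 (0.16) to ABCG2 (0.15). The last 3 were not separated there, nor ABCG1 from ABCC3. ABCG2 was thus with ABCG1 at the top of the order in knockout cells and with ABCC2 and ABCB4 at the bottom in wild-type cells. Summed over the 7 genes, the value was 137.5 in knockout cells and 23.05 in wild-type cells. ABCG2 made up 25.9% of the sum in knockout cells and 0.651% in wild-type cells, while ABCA12 made up 23.4% in knockout cells and 58.7% in wild-type cells.

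On the log2(value + 1) scale, which understates the difference of lowly expressed genes, 6 of the 7 ABC genes were at least 2-fold higher in knockout cells, beside 80.6% of all 2046 genes. The gene short of 2-fold was ABCB4, at a log2 ratio of 0.79. At 4-fold, ABCG2, ABCG1 and ABCC3 passed, with log2 ratios of 4.99, 3.69 and 2.06, beside 21.3% of all genes. The log2 ratio was 1.80 for ABCB6, 1.20 for ABCC2 and 1.19 for ABCA12. The median log2 ratio was 1.80 over the 7 genes and 1.33 over all genes of the table. Whether ABC genes as a group differ from the rest of the table was not tested. The lower limit of the counting interval was above 2 for 7 of 7 ABC genes, beside 76.5% of all genes. By the authors' deposited table, ABCG2 and ABCG1 had a ratio of at least 10, beside 20.1% of all genes, and ABCG2 had one of at least 100, beside 3.67%.

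**Figure D3:**
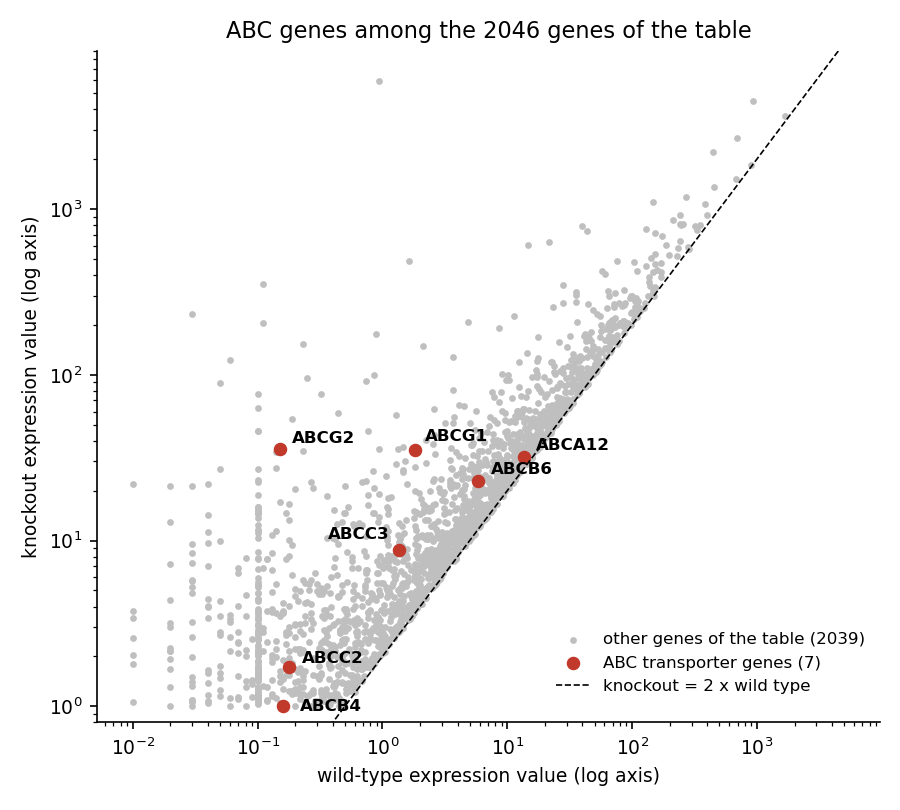
Knockout against wild-type expression value of the 2046 genes of the table (both axes log; dashed line where the knockout value is 2 times the wild-type value), with the 7 ABC genes in red. No gene lies below the line because the table holds genes on or above it, and ABCG2 and ABCG1 lie farther above it than the other 5 ABC genes.

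The length of the coding region, which the choice of genes did not use, divided the 7 genes into 3 and 4. The longest annotated coding region was 1965 to 2526 bases for ABCG2, ABCG1 and ABCB6, transporters that carry a single set of domains and work as dimers. It was 3858 to 7785 bases for ABCB4, ABCC3, ABCC2 and ABCA12, which carry both sets in a single chain. The values of the first 3 ran from 23.0 to 35.57 in knockout cells and from 0.15 to 5.87 in wild-type cells. Those of the other 4 ran from 1 to 32.1 in knockout cells and from 0.16 to 13.53 in wild-type cells, so the classes overlap in both libraries.

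Reads of some of these genes could be shared with other genes. Of all 50-base windows of the longest-coding ABCB6 transcript in GENCODE 29, 90.8% are also in transcripts of AC068946.2, a protein-coding locus on the same strand that overlaps ABCB6, so the ABCB6 value is uncertain if the authors' annotation held that locus. The share was 3.0% for ABCB4, with its neighbor and close relative ABCB1. No such window was shared for ABCG2, ABCG1, ABCA12, ABCC2 or ABCC3. The deposited counts were not whole for 4 of the 7 genes in knockout cells and 3 in wild-type cells. ABCG2 was among them, at 10.48 wild-type reads.

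ABCG1 lies beside the luminal markers of the table. It is on the plus strand of chromosome 21 from 42199689 to 42297244 in GRCh38 (Entrez 9619), and the TFF3 gene lies 14423 bases past its end, with TFF1 at 65038 bases. TFF3, a secreted trefoil peptide of mucous epithelia, had a value of 127.85 in knockout cells (2447 reads) and 3.68 in wild-type cells (61 reads), and a read-count fold of 34.7 (26.9 to 45.5). TFF1, a trefoil peptide induced by estrogen in luminal breast cells, had a value of 5920 in knockout cells and 0.94 in wild-type cells. Of the 13 other protein-coding genes within 500 kb of ABCG1, 6 were in the table, all on its downstream side. TMPRSS3, a membrane serine protease, followed at 3.03 in knockout cells and 0.97 in wild-type cells, with a fold of 3.0 (2.04 to 4.54). SLC37A1, a sugar-phosphate carrier, was at 25.46 in knockout cells and 9.87 in wild-type cells, with a fold of 2.60 (2.35 to 2.89). RSPH1 and PDE9A had folds of 2.24 (1.52 to 3.34) and 3.08 (1.44 to 7.33). ABCG1, TFF3 and TFF1 thus had folds above 10 and the 4 genes of the table farther away had folds of at most 3.08. TFF2, which lies between TFF3 and TFF1, was not in the table, so its fold is not known here. Over the windows of the 7 ABC genes, 19 of 119 neighbors were in the table, or 15.97%, beside 10.1% of all protein-coding genes of GENCODE 29. The comparison with neighbors was chosen after values were seen. Whether the neighborhood bears on the ABCG1 value was not tested.

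**Figure D4:**
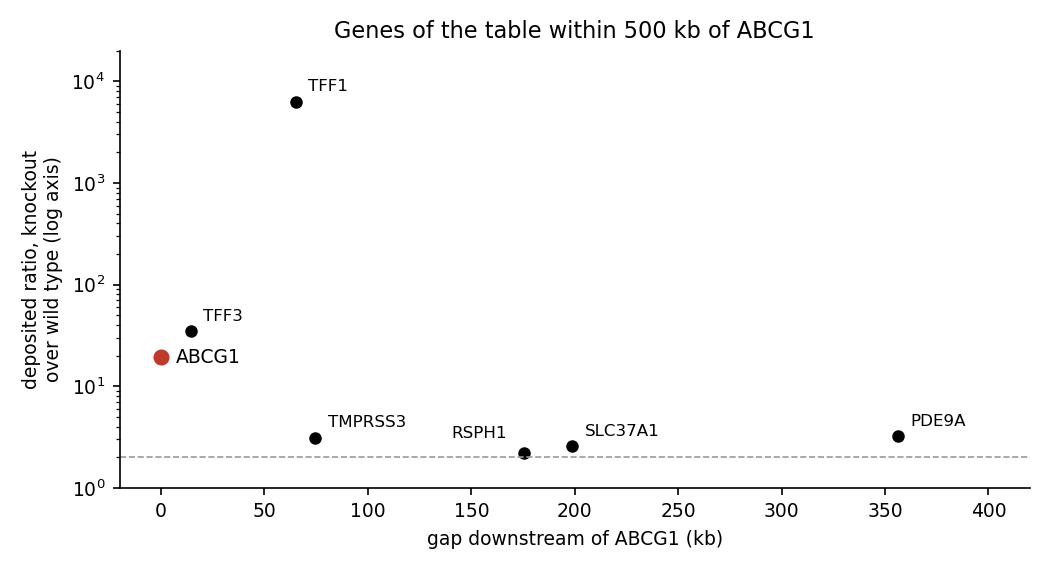
Ratio of knockout to wild type in the authors' deposited table (log axis, dashed line at 2) for ABCG1 and the 6 genes of the table within 500 kb, against the gap downstream of ABCG1 in kb. ABCG1, TFF3 and TFF1 lie above 10 and the 4 genes beyond them lie between 2.20 and 3.23.

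The genes closest to ABCG2 in both libraries were found by the distance between their log2(value + 1) pairs, over 2 libraries only. They were CXCL17 (distance 0.06), NRCAM (0.10), HENMT1 (0.35), OXCT1 (0.36) and HGD (0.36). CXCL17, a mucosal chemokine, was at 34.1 in knockout cells and 0.14 in wild-type cells. NRCAM, a cell adhesion molecule of neurons, was at 34.62 in knockout cells and 0.23 in wild-type cells. HENMT1, a methyltransferase of small RNAs, had 1405 reads in knockout cells and 0 in wild-type cells. HENMT1 was at least 329-fold higher by the lower limit of the counting interval, and 405-fold higher when 3 reads stand for the 0. OXCT1, an enzyme of ketone body use, was at 45.84 in knockout cells and 0.10 in wild-type cells. HGD, a dioxygenase of tyrosine breakdown, was at 27.42 in knockout cells and 0.14 in wild-type cells. Such a likeness over 2 libraries describes a level and a difference only.

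Genes that work with ABC transporters were sorted into 10 lists with 128 members. Of these members 22, or 17.2%, were in the table, beside 10.0% of all protein-coding genes. The lists were chosen with earlier results of these data known and leave out the genes not reported here, so that share is not a test. On the log2(value + 1) scale 19 of the 22 were past 2-fold, as were 80.6% of all genes of the table. Drug conjugation enzymes, which make many substrates of ABCC2, ABCC3 and ABCG2, gave 9 of 24, and 9 of these 9 reached 2-fold, with a median log2 ratio of 1.63. GSTT1, a glutathione transferase, had 396 reads in knockout cells and 0 in wild-type cells. GSTT1 was at least 92.5-fold higher by the lower counting limit, and 114-fold higher when 3 reads stand for the 0. UGT1A6, a glucuronosyltransferase that shares exons with other UGT1A genes, had 342 reads in knockout cells and 0 in wild-type cells. UGT1A6 was at least 79.8-fold higher by the lower counting limit, and 98.6-fold higher on the same floor of 3 reads. SULT1A3, a sulfotransferase with a near-identical copy, was at 26.98 in knockout cells and 4.98 in wild-type cells. The other 6 enzymes had read-count folds from 2.35 to 3.95.

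The remaining lists held fewer genes of the table. Other efflux pumps gave 3 of 7, of which 2 reached 2-fold: TMEM205, linked to cisplatin resistance, at 310.5 in knockout cells and 72.73 in wild-type cells, and ATP7A, a copper pump, at 5.50 in knockout cells and 1.43 in wild-type cells. The carrier SLC22A18 was at 13.23 in knockout cells and 6.48 in wild-type cells, with a fold of 1.99 (1.64 to 2.42). Lipid efflux partners and LXR targets, the setting of ABCG1, gave 2 of 14, both at least 2-fold higher. MYLIP, a ubiquitin ligase that LXR induces, was at 31.16 in knockout cells and 6.69 in wild-type cells, with a fold of 5.06 (4.48 to 5.74). LPCAT3, a phospholipid acyltransferase, was at 23.94 in knockout cells and 10.04 in wild-type cells, with a fold of 2.38 (2.11 to 2.68).

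Of 14 transcription factors known to act on ABCG2, 1 was in the table. PPARG, a nuclear receptor of lipid metabolism, was at 1.55 in knockout cells (77.1 reads) and 0.18 in wild-type cells (15.5 reads). Its read-count fold was 4.30 (2.41 to 7.65), while its ratio in the authors' deposited table, 8.61, lies above those limits. Peroxisome genes gave 1 of 14, the very long chain acyl-CoA synthetase SLC27A2, at 12.4 in knockout cells and 0.68 in wild-type cells. Heme and iron-sulfur genes, the setting of ABCB6, gave 2 of 17. The heme-degrading enzyme HMOX1 was at 23.51 in knockout cells and 2.61 in wild-type cells, and the iron-sulfur scaffold ISCU was at 44.8 in knockout cells and 22.4 in wild-type cells, below 2-fold on the log2(value + 1) scale.

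Genes of stem cells and of the dye-excluding side population, in which ABCG2 is the best known pump, gave 3 of 12, and 2 of these, SOX2 and EPCAM, reached 2-fold. SOX2, a stem cell transcription factor, was at 32.01 in knockout cells and 8.54 in wild-type cells. EPCAM, an epithelial adhesion molecule, was at 419.6 in knockout cells and 145.7 in wild-type cells. BMI1, a Polycomb protein, was at 18.62 in knockout cells and 9.26 in wild-type cells. Peptide loading partners of the TAP transporter gave 1 of 10, the tapasin relative TAPBPL, at 6.84 in knockout cells and 1.13 in wild-type cells, with a fold of 5.72 (4.0 to 8.17). Translation partners of ABCE1 and the F subfamily gave 0 of 13, and those subfamilies gave none, beside 10.0% of all protein-coding genes. Lists this small do not tell an absence from that share. Of the partners named here, GSTT1 and UGT1A6 had lower counting limits, 92.5 and 79.8, above the fold of ABCG1 (18.6), and SLC27A2 had a fold of 18.3 (12.3 to 28.2) that is not separated from it. None of the partners with wild-type reads reached the fold of ABCG2 (174).

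**Figure D5:**
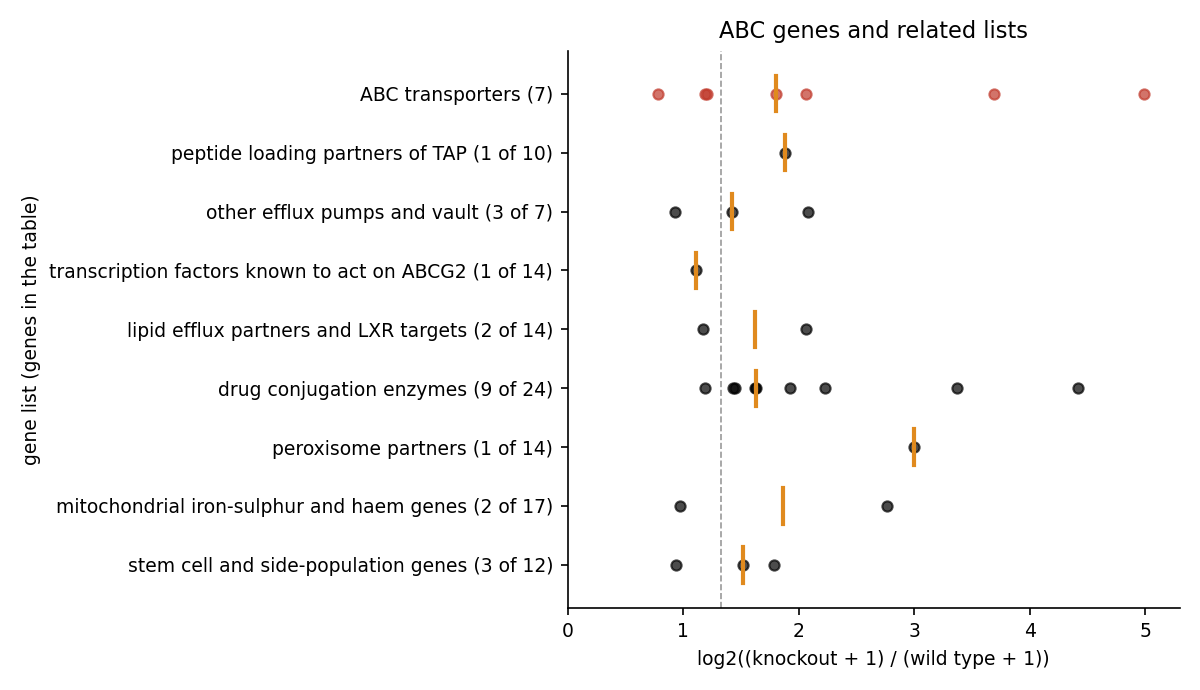
log2((knockout + 1) / (wild type + 1)) of the 7 ABC genes (top, red) and of the members of related lists that are in the table (black), with the median of each list as an orange bar and the median of all 2046 genes, 1.33, as a dashed line. ABCG2 at 4.99 has the highest log2 ratio shown, and the ABC and drug conjugation lists have medians of 1.80 and 1.63.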

How the data were processed

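RNA of 2 libraries, 1 per genotype, was sequenced. HISAT2 2.0.4 and CASAVA 1.4 are listed, with GRCh38.p12 as the build, per the submitters' processing notes, while the counting tool, annotation and strand setting were not given in the sources used here. Per the file headers, the authors deposited for each library an expression value (a signal scaled for length and depth, not named as FPKM or TPM) and a read count, treated as an expected count because many are not whole. The deposited ratio equals knockout over wild-type value in 2046 of 2046 genes (tolerance 1e-06). The headers of the authors' log2 columns are swapped relative to the value headers in 2046 of 2046 genes. The log2 column named for wild type gives the value headed knockout over the mean. The log2 columns were used for that check only. Columns of other samples numbered 0.

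The log2 ratio was log2((knockout + 1) / (wild type + 1)), for genes that reached a value of 1 in a library. The read-count fold was the knockout count over the wild-type count, scaled down by 1.155, the median between-library ratio of reads per unit of value in 1133 genes with at least 100 wild-type reads (86.4% within 5% of it). Its 95% interval is the exact conditional binomial one on rounded counts, and intervals of a value are exact Poisson. Both cover counting error only, as does the floor of 3 reads used where a count is 0. They treat reads as independent, but PCR copies were not told apart by molecular identifiers, so counting error itself may be understated. The interval was tried on counts simulated with counting error only, which it assumes, so this does not cover variation between cultures or libraries.

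All ABC genes described are named, while 1 other ABC gene and 3 genes of the related lists are not reported here and were left out of those genes' and lists' counts, sums, medians and figures. Of each related list all genes in the table are named where they number 5 or fewer, otherwise the 3 with the highest log2 ratio, and the 5 genes nearest to ABCG2. The genes and lists were chosen with earlier results of these data known. Neighbors and transcripts are from GENCODE 29, promoters from RefSeq (GRCh38.p14). Python 3.11.15, pandas 2.3.3, numpy 2.4.6 and scipy 1.17.1 were used. Alternatives were pseudocounts, filters, the fold threshold, centring, read counts, the ratio as deposited and the counting interval.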

Additional observations from a re-analysis of the deposited data

How the results depend on the processing

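The count of 6 ABC genes at least 2-fold higher in knockout cells was 3 under the 4-fold rule and 2, ABCG2 and ABCG1, after centring on the median of all genes. The count over all 2046 genes was 1650, against 844 with a pseudocount of 5, 436 under the 4-fold rule and 279 after centring. The median log2 ratio of the ABC genes, 1.80, was 2.62 and 1.12 with pseudocounts of 0.1 and 5, 0.48 after centring, 2.69 from read counts and 2.70 from the ratio as deposited. Each stricter rule lowers a count by construction. Centring removes 1.33, the median of a table chosen for higher knockout values, and it turned the sign for ABCA12 (-0.14), ABCC2 (-0.12) and ABCB4 (-0.54). Of 47 values of single ABC genes under the alternatives, 19 moved by less than counting error or not at all, 25 by more and 3 changed sign. The settings that change only the filter on low values reuse the same ratio, so their values are among the 19 by construction. ABCG2 and ABCG1 were past 2-fold under every alternative run, and past 4-fold on the log2(value + 1) scale. Few wild-type reads (10.5 for ABCG2, 12.5 for ABCB4 and 17 for ABCC2) limit the precision of those folds. No leave-one-out and no replicate check was possible. No paired analysis was possible because each genotype has 1 library.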

Other observations

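Genes of the table near the other ABC genes were counted as well, beside a share of 10.1% over all protein-coding genes. No difference from that share or between neighborhoods was tested. Of the 37 protein-coding genes within 500 kb of ABCB6 on chromosome 2, 7 were in the table. WNT6, a secreted WNT ligand, had 52 reads in knockout cells and 0 in wild-type cells. WNT6 was at least 11.8-fold higher by the lower counting limit, and 15.0-fold higher when 3 reads stand for the 0. The other 6 had folds from 2.15 to 4.74, highest for CHPF, a chondroitin-polymerizing factor (4.74), and OBSL1, a cytoskeletal adaptor (4.67). Around ABCC2 on chromosome 10, 2 of 16 were in the table: DNMBP, a scaffold that binds dynamin, with a fold of 7.20, and CNNM1, a magnesium transporter relative, with 756 reads in knockout cells and 10.1 in wild-type cells and a fold of 64.7 (35.4 to 137). ABCG2 had 1 of 15, HERC3, a ubiquitin ligase, with a fold of 4.89 (4.11 to 5.88), ABCC3 1 of 25, ABCB4 2 of 9 and ABCA12 0 of 4. The neighbors named here were chosen after their values were seen.

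Reads per unit of expression value gave the same scaling for most ABC genes but not for ABCG2. Relative to the median gene, the knockout to wild-type ratio of reads per unit was 0.734 for ABCG2, 0.870 for ABCB4 and 0.911 for ABCC2, and 0.955 to 0.991 for the other 4 genes. The ratio of ABCG2 in the authors' deposited table, 237, is above its read-count fold of 174. The 3 genes have 10.5, 12.5 and 17 wild-type reads and wild-type values given to 2 decimals. Why their reads per unit differ between the libraries was not tested.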
